A study of Drosophila melanogaster with 12 samples.

Results

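The regions described here are the 1926 stretches of the fly X chromosome that a list of 9 chromatin states assigns to State 5, the state of active genes on the male X. They were taken as every row with state number 5 and chromosome name X, so the choice used no measured read. The list holds 42126 regions, of which 7893 are on X and 2354 are State 5 on any chromosome. State 5 is accordingly a state of X: 94.1% of its summed length is there, and the 428 State 5 regions elsewhere add up to only 785.2 kb.

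The study used chromatin immunocleavage followed by sequencing (ChIC-seq), in which an antibody guides micrococcal nuclease to a GFP-tagged histone and the released DNA is sequenced. There were 4 groups of 3 libraries each, made from testes that expressed H3-GFP, H3A31S-GFP, H3.3-GFP or H3.3S31A-GFP. In H3A31S the Ala at residue 31 of H3 is replaced by the Ser of H3.3, and H3.3S31A carries the opposite swap. Each library came from 18 to 20 pairs of testes pooled from males aged about 2 days at 25 °C. All groups, the wild-type histones included, carried hsFLP and expressed the Unpaired (Upd) ligand with the tagged histone under the germline driver nos-Gal4. Such testes are tumours filled with cells like germline stem cells and like the somatic cyst stem cells. The H3A31S group had another nos-Gal4 insertion than the other 3 groups, and its histone transgene was crossed in on a separate chromosome from Upd. The table of reads per region has 12 columns with no names, and no column could be given to a library. No histone is therefore compared with another here, and the reads appear only as the sum over all 12 columns.

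In male flies the X is present in a single copy, and its genes are transcribed more strongly to make up for this. In somatic cells this dosage compensation is carried out by the male-specific lethal (MSL) complex, a ribonucleoprotein that binds active genes on X and acetylates lysine 16 of histone H4. The complex spreads over transcribed gene bodies, where the elongation mark H3K36me3 also lies, and favours their 3' parts over their promoters. The 9 states came from histone marks in cultured fly cells, not in testes. Whether germ cells use the MSL complex is a separate matter, so a State 5 region here is a place defined in other cells and not a measurement of the germline.

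State 5 occupied more of X than any other state. Of the summed region length on X, 28.5% was State 5 (12.4 of 43.7 Mb), ahead of State 8 (heterochromatin-like stretches within euchromatin) with 20.1% and State 9 (silent) with 18.9%. On the arms 2L, 2R, 3L and 3R, State 5 made up between 0.20% (3L) and 0.65% (3R) of the length, and on chromosome 4 it made up 0.15%. State 2, the state of transcription elongation, showed the reverse distribution. It made up between 13.9% and 17.4% of those arms and 0.216% of X, where it had 64 regions. The lengths of all regions were whole multiples of 200 bp.

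State 5 regions were the longest on X by their median. Their median was 4000 bp, with quartiles of 1800 and 8200 bp and a range from 200 bp to 103 kb. The next highest median among the other 8 states on X was 3200 bp, in State 8, while State 1 (promoters and TSSs) had a median of 2000 bp. The 6669 State 2 regions of the autosome arms had a median of 3200 bp with quartiles of 1800 and 5400 bp, the same lower quartile as State 5 on X and a lower upper one, and the longest of them reached 113600 bp. The 404 State 5 regions on those arms were far shorter, with a median of 1200 bp and a longest region of 23.2 kb. These are descriptions of one list, with no replicate and no test.

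**Figure D1:**
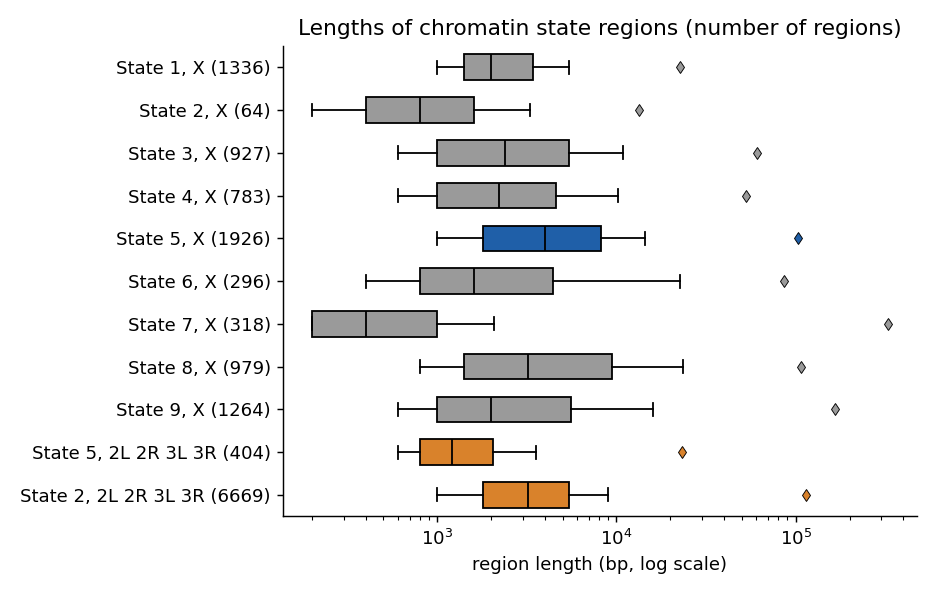
Lengths of the regions of each state on X, and of State 5 and State 2 on the autosome arms, in bp on a log axis. Boxes span the quartiles with a line at the median, whiskers reach the 10th and 90th percentiles, and diamonds mark the longest region. The State 5 box on X lies to the right of the State 5 box of the arms, with medians of 4000 and 1200 bp.

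A small number of long regions held much of the State 5 length. The 311 longest regions (16.1%), each of at least 11.4 kb, held 50% of the summed length. The 101 regions over 20 kb were 5.24% of the regions and 25.4% of the length. At the other end, 16 regions were a single bin of 200 bp and 234 were between 400 and 1000 bp. Together these short regions made up little of the length, 1.43% for the second class. Most regions lay between, with 898 from 1200 to 5000 bp and 677 from 5200 bp to 20 kb.

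The 5 longest regions summed to 391.4 kb, 3.15% of the State 5 length on X. Positions are given as the list states them, counted from 1, and the list does not name its genome build. The longest ran from 12125895 to 12228894 (103 kb). The next were 3380695 to 3466094 (85.4 kb), 21071295 to 21150294 (79 kb) and 11816895 to 11880694 (63.8 kb). The fifth, from 12175095 to 12235294 (60.2 kb), overlapped the longest, so a single stretch of X gave both entries.

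That overlap was the rule. Of the bases of X that the list covers, 97.4% lay in 2 regions and none in more. The list does not say what distinguishes the overlapping regions. At every one of the 6653 positions where 1 region ended and 1 began, the states on the sides differed. State 5 was named by at least 1 region over 7.92 Mb, 35.8% of the covered X, and by both regions over 4.52 Mb. Of the State 5 bases that lay in 2 regions, 58.5% were therefore State 5 in both.

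How often both regions named the same state varied widely between states on X. State 5, with 58.5%, stood below State 1 (70.4%) and State 7 (pericentromeric heterochromatin, 63.1%), and above State 6 (Polycomb-repressed, 52.5%) and State 3 (regulatory regions such as enhancers, 39.3%). States 4, 8 and 9 ranged from 12.8% to 20.4%. Among the State 5 regions, 577 (30.0%) were State 5 in both over their whole length, 463 (24.0%) had no such base, and 886 were mixed. Regions with no shared base were the shortest, with a median of 1600 bp against 3400 bp for those wholly shared and 5800 bp for the mixed ones.

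Where only 1 of the overlapping regions was State 5, the other was most often State 8. State 8 took 32.8% of those bases (1.05 Mb), State 3 took 19.1%, State 9 took 16.0% and State 4 (active introns) took 15.9%. Over the rest of X, where neither region was State 5, the shares were 27.6% for State 8, 12.7% for State 3, 27.8% for State 9 and 9.67% for State 4. States 3, 4 and 8 were thus more frequent opposite State 5 than elsewhere on X, and silent State 9 was less frequent. State 1 was about equal in both, with 11.8% and 11.2%.

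State 5 regions lay next to promoters. At 3130 sides of State 5 regions a single neighbour could be read, and State 1 was that neighbour at 1406 of them (44.9%). Edges at which more than 1 region ended or began were left out, so part of the sides is missing here. Of the 10176 sides at all readable junctions on X that were not State 5 themselves, those touching State 5 included, State 1 made up 19.6%. State 8 followed at 632 sides (20.2%), State 3 at 520 (16.6%) and State 9 at 331 (10.6%). Among all 10176 sides, State 8 made up 17.2%, State 3 15.6% and State 9 22.2%. States 8 and 3 were thus near their share on X, and State 9 was below its share. State 6 adjoined State 5 at 16 sides (0.511%), against 5.30% of all those sides. Seen from the promoters, 1033 of 1276 State 1 regions on X with a readable neighbour (81.0%) touched State 5, against 48.9% of State 8 regions and 22.4% of State 9 regions.

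State 2 on the autosome arms also adjoined State 1 most often, at 52.8% of 10831 sides, and State 3 at 13.1%. It adjoined State 9 at 17.2% of sides and State 4 at 10.8%, against 10.6% and 4.41% for State 5 on X. State 8 lay beside State 2 at 0.489% of sides and beside State 5 on X at 20.2%. State 8 itself made up 20.1% of X and between 3.91% and 10.3% of the arms, so its greater length on X moved with this difference; its part in it was not tested. State 5 regions on the arms behaved otherwise, and their most frequent neighbour was State 2 (26.6% of 685 sides).

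**Figure D2:**
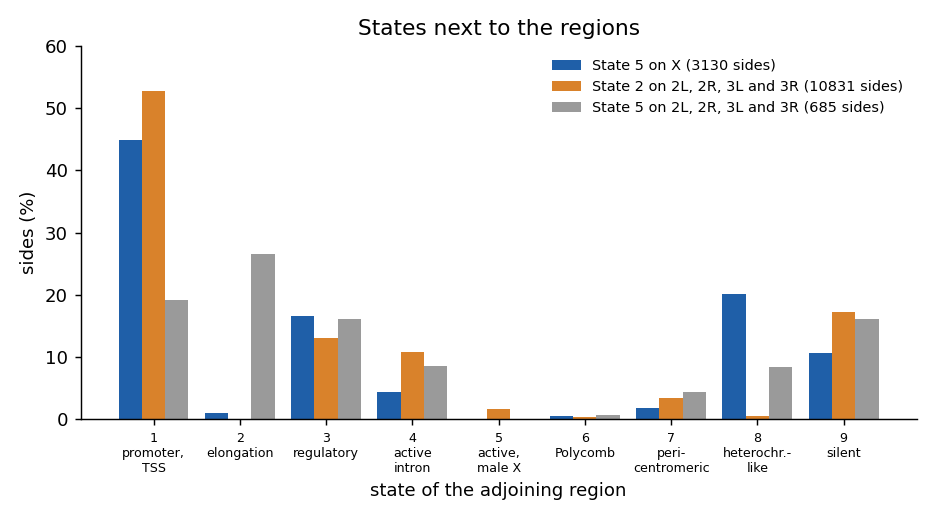
Share of sides (%) at which each state adjoined a State 5 region on X, a State 2 region on the autosome arms or a State 5 region on those arms. State 1 was the most frequent neighbour of State 5 on X (44.9%) and of State 2 on the arms (52.8%), and State 8 adjoined State 5 on X at 20.2% of sides.

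Both neighbours could be read for 1250 regions. The most frequent arrangement was State 1 on each side, in 363 regions (29.0%) with a median length of 3800 bp. State 1 with State 3 followed in 150 regions (median 5800 bp), then State 8 on each side in 127 (2000 bp) and State 1 with State 8 in 110 (5400 bp). State 1 lay on at least 1 side of 722 regions (57.8%). Among the 6 most frequent arrangements, the 63 regions between State 1 and State 9 had the highest median, 7000 bp, and those between State 8 and State 8 the lowest.

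Merging overlapping and touching regions left 1094 separate State 5 blocks with a median of 4200 bp, the longest of 109400 bp. They were spread along the whole chromosome in close succession. The median gap between blocks was 3400 bp (quartiles 1800 and 8800 bp), and 120 of 1093 gaps were at most 1000 bp. In windows of 1 Mb from the left end, State 5 covered between 21.9% (window 8) and 53.1% (window 20), with a median of 35.6% over 22 windows. No window lacked State 5, and the number of regions starting in a window ranged from 55 to 123.

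The gap lengths were uneven. Only 33 gaps exceeded 100 kb, yet they held 33.4% of the length without State 5. State 1 made up 0.512% of these wide gaps, against 11.5% of all X without State 5. State 6, the state of Polycomb repression, made up 10.8% of them against 7.52%, and State 7 made up 7.47% against 3.32%. States 8 and 9 made up 32.6% and 34.8%, against 27.5% and 27.6%.

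The 3 widest gaps differed in content. The widest, from 21499895 to 21847894 (348 kb), was 95.4% State 7, the state of pericentromeric heterochromatin. The second, from 18792895 to 19024894 (232 kb), was mostly State 9 (54.7%) and State 4 (29.4%). The third, from 18047295 to 18254294 (207 kb), was State 8 (44.4%) and Polycomb-repressed State 6 (31.5%).

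The label of State 5 was then checked against annotated genes. The reads were aligned to the dm6 genome, but the list's coordinates on X are displaced from dm6, and at the listed positions State 5 followed no gene feature: 27.5% of its length lay in annotated exons, while exons of protein-coding genes cover 26.5% of X. The regions were therefore slid along X within 500 kb, in steps of 200 bp for the exon overlap given below. For the TSSs the steps were wider at first and 200 bp around the best of these. The offset was chosen with State 1 alone, as the one that placed most TSSs in State 1. That offset was 106 kb. It put 45.4% of 3275 TSSs in State 1 regions, against 10.9% at the listed positions.

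At the offset chosen with State 1, State 5 met exons most. The overlap of State 5 length with exons peaked at the same 106 kb, with 48.9%, while offsets more than 50 kb away gave between 25.7% and 32.3%. The overlap with whole genes was 85.0%, against 73.9% at the listed positions. On 2L, where State 2 was treated the same way, the peak of 67.1% lay at an offset of 0. The values below are at an offset of 106 kb for X and 0 for 2L, and no moved coordinate is given as a position in dm6.

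**Figure D3:**
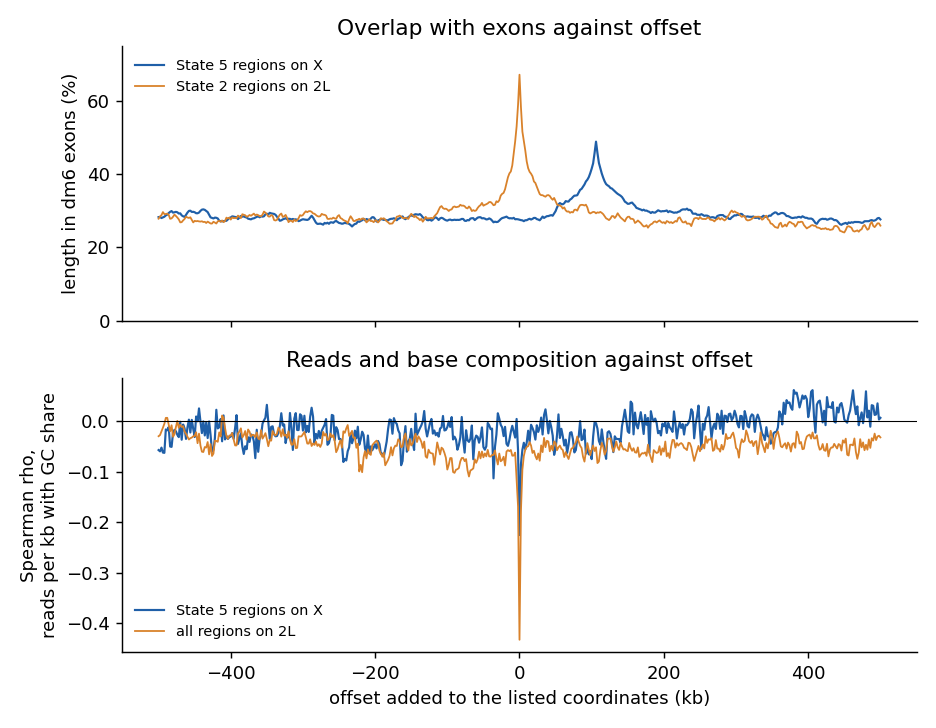
Top, length of State 5 regions on X and of State 2 regions on 2L inside dm6 exons (%) against the offset added to the listed coordinates (kb). Bottom, Spearman rho between summed reads per kb and GC share of the dm6 sequence at each offset. Exon overlap of State 5 peaked at 106 kb (48.9%). The correlation of reads with GC was strongest at 0, both for State 5 regions on X (rho -0.226) and for all regions on 2L (rho -0.433).

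The same offset served nearly all of X. In stretches of 3 Mb taken separately, the best offset was 105800 bp for the first and 106 kb for the next 6, with 42.2% to 62.3% of the State 5 length in exons. The stretch beyond 21 Mb, with 103 State 5 regions, did not follow. Its best offset within 150 kb gave 21% in exons. These 103 regions were moved by 106 kb like the others in the values below. Only the shares of State 5 length in genes and in exons were also computed without them.

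Moved in this way, State 5 had its highest shares over the coding and 3' parts of genes. It held 54.1% of the region length over coding sequence and 60.8% of that over 3' UTRs, but 19.8% over 5' UTRs, 22.3% over introns and 16.0% outside protein-coding genes. Introns are long, and of the State 5 length itself they still made up the largest part, 36.2%. Coding sequence made up 32.4% of it, 3' UTRs 13.9% and sequence outside protein-coding genes 15.0%. State 1 ran the opposite way, with 37.8% over 5' UTRs and 8.86% over 3' UTRs. At the listed positions State 5 had between 27.6% and 29.6% in every one of these classes. On 2L, State 2 held 37.6% over coding sequence, 45.8% over 3' UTRs and 7.49% over 5' UTRs, the same order of classes as State 5 on X.

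Along the gene body the states took turns. In 1314 genes of at least 2 kb on X, State 5 made up 18.5% of the first 5% of the gene, 64.4% of part 19 of 20, and 62.8% of the last. State 1 went from 48.9% to 11.4% over the same parts, and State 5 passed it after the first 25% of the gene. Outside the gene, State 5 made up 56.7% of the 200 bp just downstream and 47.5% of those at 1 kb downstream, against 19.5% just upstream and 27.4% at 1 kb upstream. State 8 stayed at about 10% throughout and had no such shape. At the listed positions the curve of State 5 was flat, between 27.9% and 29.9%.

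State 2 on 2L had the same shape in 1320 genes, from 6.61% in the first part to 50.6% in the last. The ratio of last to first part was 3.40 for State 5 on X and 7.66 for State 2 on 2L. State 5 on 2L stayed below 1% throughout.

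**Figure D4:**
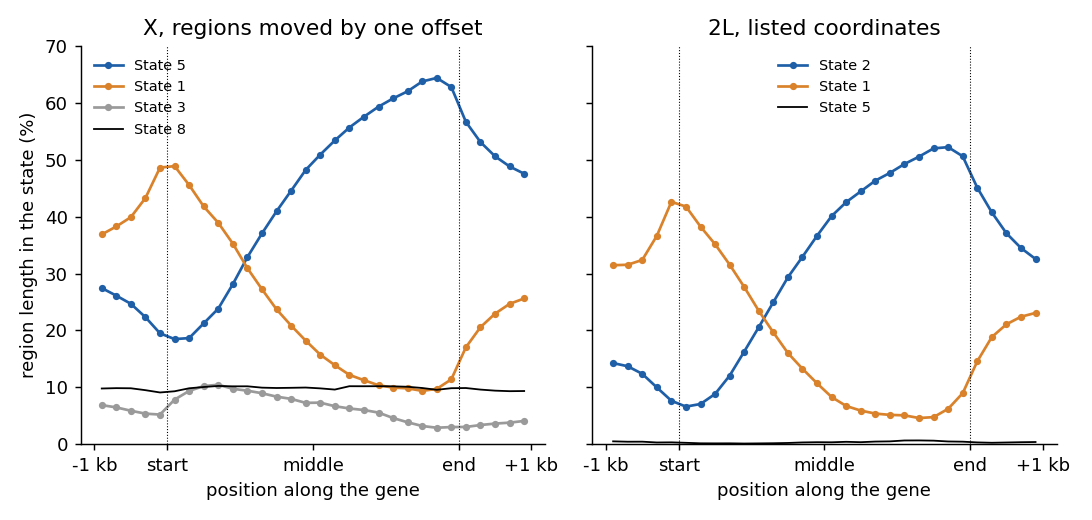
Mean share of region length (%) in each state along genes of at least 2 kb, from 1 kb before the start to 1 kb after the end, with the gene divided into 20 parts. Left, X at an offset of 106 kb, where State 5 went from 18.5% to 62.8%. Right, 2L at the listed coordinates, where State 2 went from 6.61% to 50.6%.

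The spaces between neighbouring genes showed the same polarity. Where the 3' ends of 2 genes faced each other (convergent genes), the spacer of 200 bp to 5 kb between them was on average 51.5% State 5 and 14.2% State 1 in 102 pairs. Where 2 starts faced each other (divergent genes), it was 14.0% State 5 and 57.8% State 1 in 341 pairs. Genes in the same direction lay between, with 35.8% and 27.2% in 538 pairs. In 33 of the convergent spacers (32.4%) State 5 filled the whole spacer, as it did in 16 of the divergent ones (4.69%). State 2 on 2L kept this order at lower values, with 26.7% in convergent, 16.3% in tandem and 2.37% in divergent spacers.

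Genes of middle length were covered most. At least 50% of the gene was State 5 in 333 of 660 genes of 2 to 5 kb (50.5%) and in 265 of 441 genes of 5 to 20 kb (60.1%). The share was 24.9% below 1 kb and 20.8% in the 192 genes of 20 kb or more. In all, 2153 protein-coding genes on X were overlapped by at least 1 moved region of any state. Of these, 879 (40.8%) were covered by State 5 to at least 50%, 246 (11.4%) to at least 90%, and 700 (32.5%) had no State 5. Genes that no region of the list overlapped were left out, here and in the length classes. These counts include the stretch beyond 21 Mb, where the offset of 106 kb did not hold. How far that stretch added to the genes without State 5 was not tested. On 2L, 23.2% of the 2651 genes that the list overlapped were covered by State 2 to at least 50%, again with the highest shares between 2 and 20 kb.

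Seen from the regions, 824 (42.8%) touched a single protein-coding gene, 943 (49.0%) touched more, up to 9, and 159 (8.26%) touched none. Such genes cover 70.7% of X, so most regions would touch a gene at many offsets. The count was not made for other states or at the listed positions, and it shows nothing particular to State 5. It included the regions beyond 21 Mb, and their part in the 159 over no gene was not tested. Where both overlapping regions were State 5, 56.3% of the bases were exonic and 16.2% were 3' UTR. Where only 1 was, these shares were 27.8% and 7.47%, and 49.3% of the bases were intronic. For comparison, State 1 was 61.0% exonic and State 8 was 15.4% exonic.

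The neighbours of a region went with its content. The 363 regions with State 1 on each side were 65.7% exonic, and those between State 1 and State 3 were 52.1% exonic. The 127 regions with State 8 on each side were 29.5% exonic, although 89.2% of their length was inside genes, and the 53 between State 9 and State 9 were 26.4% exonic. When State 1 lay on 1 side only and the region touched genes of a single strand, State 1 was at the 5' side of the genes in 122 regions and at the 3' side in 72 (62.9% at the 5' side). This share was 76.9% for regions with State 9 on the other side (30 against 9). It was 63.9% with State 8 there (39 against 22) and 49.3% with State 3 there (36 against 37).

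The reads of all 12 columns were summed for each State 5 region of X, in a table with as many rows as the list. In list order, reads and region length went together with a Spearman rho of 0.869 over the State 5 regions, and with the table moved by 1 row rho was 0.0418. Overlapping regions share reads, so reads are counted in each of them. A median region held 1138.5 reads (quartiles 480 and 2396), for which the counting error is 2.96%. Counting error is the only error these sums allow, since no replicate can be told from another.

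The rows of State 5 regions on X held as many reads per length as the other rows of X. The reads of a row followed the dm6 sequence at the listed coordinates, as the GC share shows, while the states met genes 106 kb away. The comparison between states on X is therefore one of table rows and does not measure the chromatin of State 5. The State 5 rows had a median of 303 reads per kb (quartiles 271 and 337) and all other X rows one of 302.5, a ratio of 1.00. Among regions of at least 1000 bp, the medians of the 9 states on X ran from 296 (State 8) to 328 (State 2), with State 5 at 303.5. The spread between quartiles within State 5, from 272 to 335, was wider than this range of medians.

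All of X lay well below the autosomes. The ratio of State 5 on X to the regions of 2L, 2R, 3L and 3R was 0.524, and the ratio for all X regions was 0.522. The 404 State 5 regions of the arms had a median of 555 reads per kb, and State 2 regions there had 578. Offsets were examined on X and 2L only. Whether state and reads of a row refer to the same DNA on 2R, 3L and 3R was not tested, so these medians too are those of table rows. The males that gave these testes carry a single X, and the part of copy number in this ratio was not tested.

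**Figure D5:**
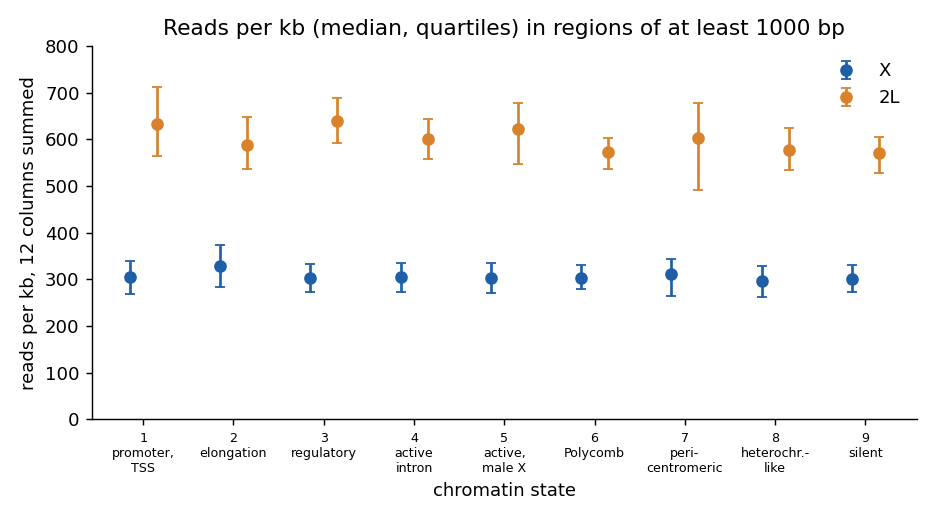
Reads per kb summed over the 12 unnamed columns, in regions of at least 1000 bp of each state on X and on 2L. Points are medians over regions and bars span the quartiles. State 5 on X stood at 303.5 and all states of X between 296 and 328, but on X the state labels met genes 106 kb from the coordinates at which reads followed the sequence, so these points compare table rows. All states of 2L lay between 570 and 640.

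The reads followed the sequence at the listed coordinates, not at the offset where State 5 met genes. The 1724 State 5 regions of at least 1000 bp with any reads were used. Their reads per kb went with the GC share of the dm6 sequence at an offset of 0 (Spearman rho -0.226). At 106 kb rho was -0.00388. The 431 regions with the lowest GC at the listed positions, at most 39.7%, had a median of 322 reads per kb, and the 431 with at least 45.2% had 286. Lowest and highest groups made in the same way from the sequence at 106 kb had 303 and 307. The 6342 X regions of any state with at least 1000 bp and any reads behaved alike, with rho -0.321 at 0 and -0.0187 at 106 kb. The points share the same 12 libraries, and these correlations are descriptions without a test.

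The regions without reads showed the same. Of the 1926 regions, 39 had 0 reads in all 12 columns. At the listed positions 52.1% of their sequence was masked as repeats or unknown bases on average, and 15 of them were masked to at least 90%. At 106 kb the average was 17.5% and none was masked so far. The 1887 regions with reads averaged 19.1% at the listed positions. On X, the offset at which reads went with the sequence and the offset at which states met genes were thus 106 kb apart. The read levels given for State 5 are those of the table's rows at the listed coordinates. Reads at the offset of 106 kb were not analysed here.

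Most State 5 regions had similar read levels, with 84.8% between 200 and 400 reads per kb. The highest of those with at least 1000 bp was 8294695 to 8300294, with 9881 reads in 5.6 kb (1764 per kb, exact Poisson 95% interval 1730 to 1800 for counting error only). The reads were uneven within it. A State 5 region of 400 bp at its left end, 8294695 to 8295094, held 2667 of them (6667.5 per kb). Another inside it, 8296495 to 8300094, held 1026 in 3.6 kb (285 per kb). Most of the 9881 reads lay in neither of these, but in the rest of the 5.6 kb. At the same numbers in dm6, 1 annotated transposable element overlaps the 5.6 kb region by 1589 bp. The region also overlaps 1 protein-coding gene there, and 18.4% of its sequence was masked. The next were 72295 to 75094 (1347.5 reads per kb) and 51295 to 67894 (1136 reads per kb), both near the left end of the list. Neither overlaps an annotated transposable element at those numbers, and 8.11% and 40.1% of their sequence there was masked.

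Regions with no reads were most frequent at the left end. All 5 State 5 regions within the first 50 kb had 0 reads, as did 6 of the 29 beyond 22 Mb and 28 of the other 1892. The first State 5 region of X, from 19295 to 23694, had 0 reads in 4.4 kb. Taking 3 reads as the limit that a count of 0 allows, this permits up to 0.682 reads per kb. By the same limit, the region from 25295 to 37694 allows up to 0.242 and that from 26895 to 28894 up to 1.5. The last State 5 region of X, from 22416495 to 22422294, also had 0 reads (up to 0.517 per kb).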

How the data were processed

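ChIC-seq was done on 12 testis libraries in 4 groups. Per the labels and the methods, the authors used Bowtie2 for alignment to dm6, filtered on mapping quality, discarded duplicates, and deposited read counts for each region of a modENCODE list of 9 chromatin states. The counting tool and the build of the list are not given in the sources used here. The deposited count table has 12 columns without names. None was matched to a sample, and only their sum was used, undivided by depth. The region list gives chromosome, start, end and state. Its starts count from 0, and printed positions count from 1.

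Lengths, overlaps, neighbours (regions sharing an edge with exactly 1 other) and gaps were computed with Python 3.11.15, numpy 2.4.6 and pandas 2.3.3. Exons, genes and TSSs were those of protein-coding genes in the Ensembl annotation of dm6, and GC share and masking came from the RefSeq sequence. Scans of exon overlap and of base composition recovered 5 of 5 simulated constant offsets to within 1 kb. The TSS scan that chose the offset of 106 kb was not simulated, nor was an offset that changes along X. No coordinate was converted between builds, and no gene or sequence is named from the list. No test was run, because regions are not replicates and columns have no sample. The regions named are the 5 longest, the 3 widest gaps, the 3 with most and the 3 with fewest reads per kb among those of at least 1000 bp, and those at each end of X. The regions, lists and comparisons were chosen with earlier results of these data known. The composition scan, the 3 Mb stretches, the exclusion beyond 21 Mb and the listed positions along genes were added after seeing the data, as were the spacers between genes, the split by overlapping regions and the sides of genes.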

Additional observations from a re-analysis of the deposited data

How the results depend on the processing

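Of 27 alternatives to 11 results, 15 stayed within a 95% interval of the main value and 12 did not. The interval treats regions or bins of the list as independent, which overlapping regions are not, so it is a yardstick for size and no measure of stability. The share of X in State 5 was 28.5% of summed length, 35.8% as a union of bases and 24.4% of regions, by construction. The share of State 5 bases named State 5 by both regions was 58.5%, and became 62.7% without 200 bp at region edges and 59.0% in regions of at least 1000 bp. State 1 adjoined 46.9% of sides in regions of at least 1000 bp, against 44.9%. Total reads over total length gave 295 reads per kb against a median of 303, and regions at least 80% shared gave 309. By totals, the ratio to other X regions was 1.02 and that to State 5 on the autosome arms 0.635, against 1.00 and 0.547. The first was 0.998 against States 1 to 4 on X only, so it fell on either side of 1. At the listed coordinates, 73.9% of State 5 length lay in genes and 27.5% in exons, against 85.0% and 48.9%. Without regions beyond 21 Mb, 88.0% lay in genes. Beyond these constructions the cause was not tested. No paired analysis was possible because no read column carries a sample or replicate number, and no replicate could be left out for the same reason. The list comes from other cells than testis, which limits every statement about genes in the germline.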
